A study of Mus musculus with 10 samples.

Results

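The deposited table of this series holds 4 unnamed comparisons, and the first and the second set one pair of libraries, the first numerator set, against a pair of references. The third and the fourth set another pair, the second numerator set, against the same references. The difference between the second and the first numerator set was therefore available 2 times per gene: as the third minus the first comparison and as the fourth minus the second. The base mean, the authors' normalised level over the libraries of a comparison, was scaled to CPM, counts per 1000000. Genes were kept where it reached 10 CPM in all 4 comparisons and both estimates had one sign, which left 9314 genes of 9552 that reached that level, of 26755 listed in all 4 comparisons and of 35395 listed at all. The labels name the tissue as epididymal white fat from male C57BL/6 mice, in 2 Ad-IGF2 samples, 3 Ad-GFP samples, 2 IGF2-RNAi samples and 3 NC-RNAi samples. Ad-IGF2 and Ad-GFP are adenoviruses that carry IGF2, a growth factor, or green fluorescent protein, injected into the fat of obese mice over 4 weeks. IGF2-RNAi and NC-RNAi are lentiviral short hairpin RNAs against IGF2 or a control, given by tail vein to mice aged 3 to 4 weeks. The identifiers are all human, and no column of the table could be tied to a sample, so the numerator and reference sets carry no treatment, genotype or cell type here.

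Genes of adipocytes were close to absent in these libraries. The 5 adipocyte markers looked for (ADIPOQ, PLIN1, FABP4, CFD and LEP) summed to 2.1 and 0.983 CPM in the second numerator libraries, to 0.35 and 0.545 CPM in the first numerator libraries and to 0.237 to 0.799 CPM in the 4 reference libraries. None of the adipocyte, leukocyte, endothelial or neural markers looked for reached 10 CPM in all comparisons, and IGF2 had 0 reads in all 4 numerator libraries. A count of 0 leaves a low level possible. For scale, 3 reads would be 0.203 and 0.246 CPM in second numerator libraries 1 and 2, and 0.105 and 0.182 CPM in the first. Of 8 mesenchymal markers 6 were members, and VIM, an intermediate filament of mesenchymal cells, had 1891 and 1934 CPM in the second numerator libraries, against 2495 and 4960 CPM in the first. The mesenchymal markers that were not members, COL1A2 and LUM, were close to absent, at most at 0.542 and 0.0677 CPM in any library. Of 8 epithelial markers only KRT8 and KRT18, paired keratins, were members, and KRT8 had 254 and 281 CPM in the second numerator libraries, against 479 and 402 CPM in the first. The epithelial adhesion genes EPCAM and CDH1 were close to absent, at most at 0.414 and 0.591 CPM in any library, and KRT5, KRT14, KRT19 and CLDN4 reached at most 0.246, 2.08, 1.42 and 2.6 CPM.

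Cells that meet misfolded protein respond through several linked programmes. The heat shock factor HSF1 raises cytosolic chaperones, and the sensors IRE1, PERK and ATF6 of the endoplasmic reticulum (ER) raise ER chaperones and degradation factors when folding in that compartment fails. PERK and related kinases also slow translation and induce the transcription factor ATF4, whose targets, many of them for amino acid supply and redox balance, are called the integrated stress response.

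Reads per library were rebuilt from the deposited base means, since a base mean adds up whole reads with a constant weight for each library. They met the listed base means of 35395 of 35395 identifiers within 3.0 times the precision to which the table prints them, with a largest deviation of 2.55 times. Library totals were 14762790 and 12211655 reads in the second numerator set, 28596099 and 16517380 reads in the first, and 16109070 to 21153693 reads in the references. Levels below are CPM of these reads, with no correction for gene length, so that genes are compared between libraries and not with each other. In bulk RNA, fewer cells of a type cannot be told apart from less RNA per cell.

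The first numerator set was not uniform. Over the members, the log2 CPM difference between its libraries had a standard deviation (SD) of 0.65, and 964 genes differed by over 1 on that scale. The same SD was 0.24 between the second numerator libraries, 0.29 between the first references and 0.34 between the second references. First numerator library 2 lay at an SD of 0.29 and 0.23 from the first references, and library 1 at 0.60 and 0.67. Levels are therefore given for each first numerator library.

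**Figure D1:**
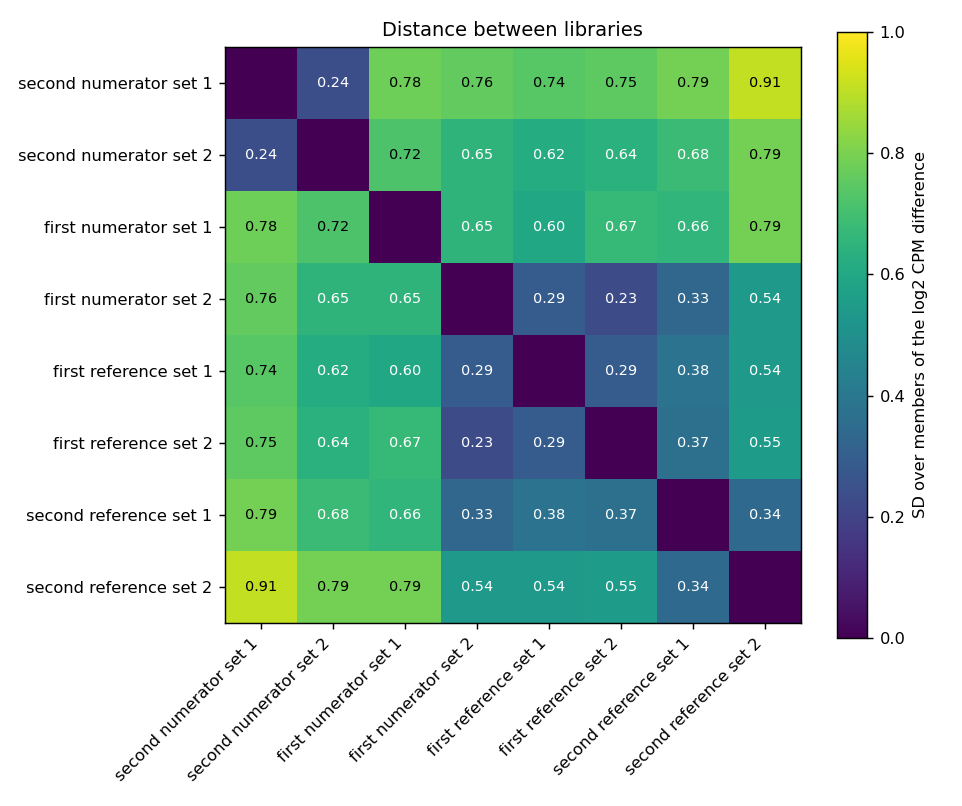
Distance between the 8 libraries, as the SD over 9314 members of the log2 CPM difference of each pair; rows and columns are libraries and the colour scale runs from 0 to 1. First numerator library 2 sits at 0.23 to 0.33 from the first references and second reference library 1, and first numerator library 1 sits at 0.60 or more from every other library.

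The 2 estimates are not independent. Both rest on the same 4 numerator libraries, and the gap between them was nearly constant over genes. The first exceeded the second by a median of 0.04 on the log2 scale (SD 0.0022 over the 9552 genes, range 0.0187 to 0.0466). The 238 genes left out for opposite signs lay within 0.0383 of 0 in both estimates, and agreement of sign thus removed only genes near no difference. The median member stood at -0.20 in the first estimate and -0.24 in the second, and 3246 members were above 0 and 6068 below. Single differences should be read against this shift of the median. On the CPM scale the median member differed by 0.00 from first numerator library 1 and by -0.07 from library 2.

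At an adjusted p under 0.05 in both estimates, 117 members were called higher in the second numerator set (1.26%) and 177 lower (1.90%), against 0.815% and 0.751% of all 26755 genes tested. The test sets each difference of the deposited log2 fold changes against the root of the summed squares of their standard errors, and its median error over members was 0.39 and 0.42. Each set holds 2 libraries tied to no sample, so its p-values describe these libraries and not a condition. With both differences centred on the median gene, the calls became 198 higher and 90 lower, which takes the share of higher calls to 68.8%, from 39.8% as deposited. All 294 called members had both second numerator libraries beyond both first ones on the CPM scale, where 29.4% of members lay above, 32.2% below and 38.4% neither in this way. All 117 called higher lay over 1 on the log2 scale above each first numerator library, and 140 of the 177 called lower lay over 1 below each. These CPM come from the same libraries as the calls, which select large differences, so this separation describes the calls and gives them no independent support. A limma fit of the rebuilt reads, added after the data had been seen, called 744 members higher (7.99%) and 1100 lower (11.8%), against 10.4% and 9.55% of all 13375 genes in that fit.

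**Figure D2:**
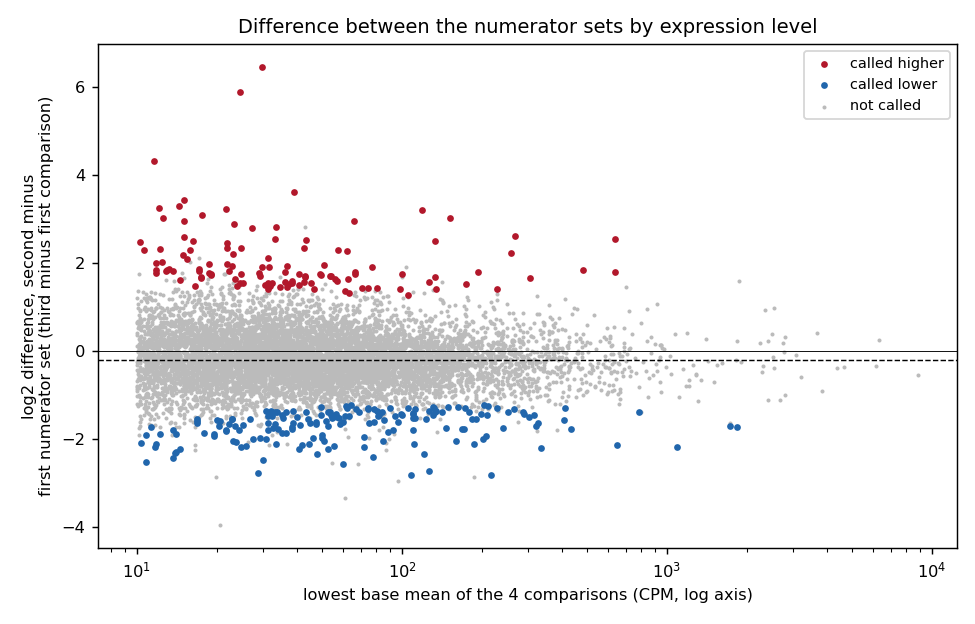
Log2 difference of the second minus the first numerator set (vertical axis, the third minus the first comparison) against the lowest base mean of the 4 comparisons in CPM (horizontal log axis), 1 point per gene, for genes called higher, called lower or not called. The dashed line is the median of -0.20; HSPA1A and HSPA1B lie highest, at 6.45 and 5.89.

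The cytosolic heat shock proteins were the list with the most calls: 10 of 21 members rose and 0 fell, with a median first estimate of 1.60 against -0.20 over all members. Counts of this and the later lists are to be read against 1.26% of all members called higher and 1.90% lower. HSPA1A and HSPA1B, the inducible HSP70 genes, had 3367 and 2668 CPM and 1798 and 1275 CPM in the second numerator libraries. In the first numerator libraries HSPA1A had 24.2 and 38.5 CPM and HSPA1B had 20.8 and 26.5 CPM. Their log2 differences were 6.45 ± 0.75 and 5.89 ± 0.43 (error of the difference; adjusted p 8.46e-14 and 4.28e-38), and since both genes are near copies, how reads were shared between them is uncertain. DNAJB1, an HSP40 co-chaperone of HSP70, had 1484 and 1108 CPM in the second numerator libraries, against 156 and 140.0 CPM in the first, a difference of 3.01 ± 0.34. HSPA4L, an HSP110-type exchange factor, had 222 and 150.0 CPM in the second numerator libraries, against 12.4 and 35.4 CPM in the first. In all 4 genes both second numerator libraries lay above every other library, with the references at 23 to 175 CPM over these genes. HSP90AA1, inducible HSP90, was not called at 7188 and 6298 CPM in the second numerator libraries, against 952 and 3026 CPM in the first (adjusted p 0.0896), and HSPA8, constitutive HSC70, was not called at 4950 and 4596 CPM, against 1374 and 3009 CPM. The 8 subunits of the TRiC/CCT chaperonin, which folds actin and tubulin, had 0 calls.

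In the ER, 5 of 17 chaperone and folding genes rose and 0 fell, with a median of 1.04. HSPA5, the HSP70 of the ER lumen, had 4186 and 4348 CPM in the second numerator libraries, against 726 and 614 CPM in the first, a difference of 2.55 ± 0.36 (adjusted p 2.62e-09). DNAJB9, its ER co-chaperone, had 209 and 175 CPM in the second numerator libraries, against 26.5 and 9.93 CPM in the first. DNAJC3 and DNAJB11, further co-chaperones of HSPA5, were 3.31-fold and 3.27-fold higher by the smaller estimate. CALR and P4HB, a lectin chaperone and a disulfide isomerase, were not called, with first estimates of 0.39 and 0.15.

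Of 16 ER stress sensors and degradation factors, 4 rose and 0 fell. HERPUD1, a membrane protein of the ER degradation machinery, had 663 and 605 CPM in the second numerator libraries, against 63.2 and 32.9 CPM in the first, a difference of 3.62 ± 0.40 (adjusted p 3.88e-14). ERN1, which encodes IRE1, had 169.7 and 132 CPM in the second numerator libraries, against 24.6 and 10.3 CPM in the first. XBP1, the transcription factor whose messenger IRE1 splices, had 225 and 189 CPM, against 30.4 and 34.6 CPM in the first numerator libraries. SELENOS, a selenoprotein of the same pathway, was 2.85-fold higher. EDEM1 and SEL1L were not called, at first estimates of 0.27 and 0.88.

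Of 18 genes of the integrated stress response, 7 rose and 0 fell, with a median of 1.40. SLC3A2, the heavy chain of amino acid exchangers, had 1188 and 983 CPM in the second numerator libraries, against 68.6 and 143 CPM in the first, a difference of 3.21 ± 0.45 (adjusted p 9.76e-09). PPP1R15A, the phosphatase subunit that reverses the block of translation, had 559 and 432 CPM in the second numerator libraries, against 39.5 and 76.7 CPM in the first. TRIB3, a pseudokinase, had 258 and 231 CPM, against 32.9 and 30.6 CPM in the first numerator libraries. SESN2, a sestrin that restrains mTORC1, had 282 and 215 CPM, against 56.9 and 34.4 CPM. STC2 and SHMT2 were not called. Among aminoacyl-tRNA synthetases, WARS was 3.29-fold higher and QARS 2.39-fold lower, and 17 of 19 were not called; the call of QARS was lost after centring.

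**Figure D3:**
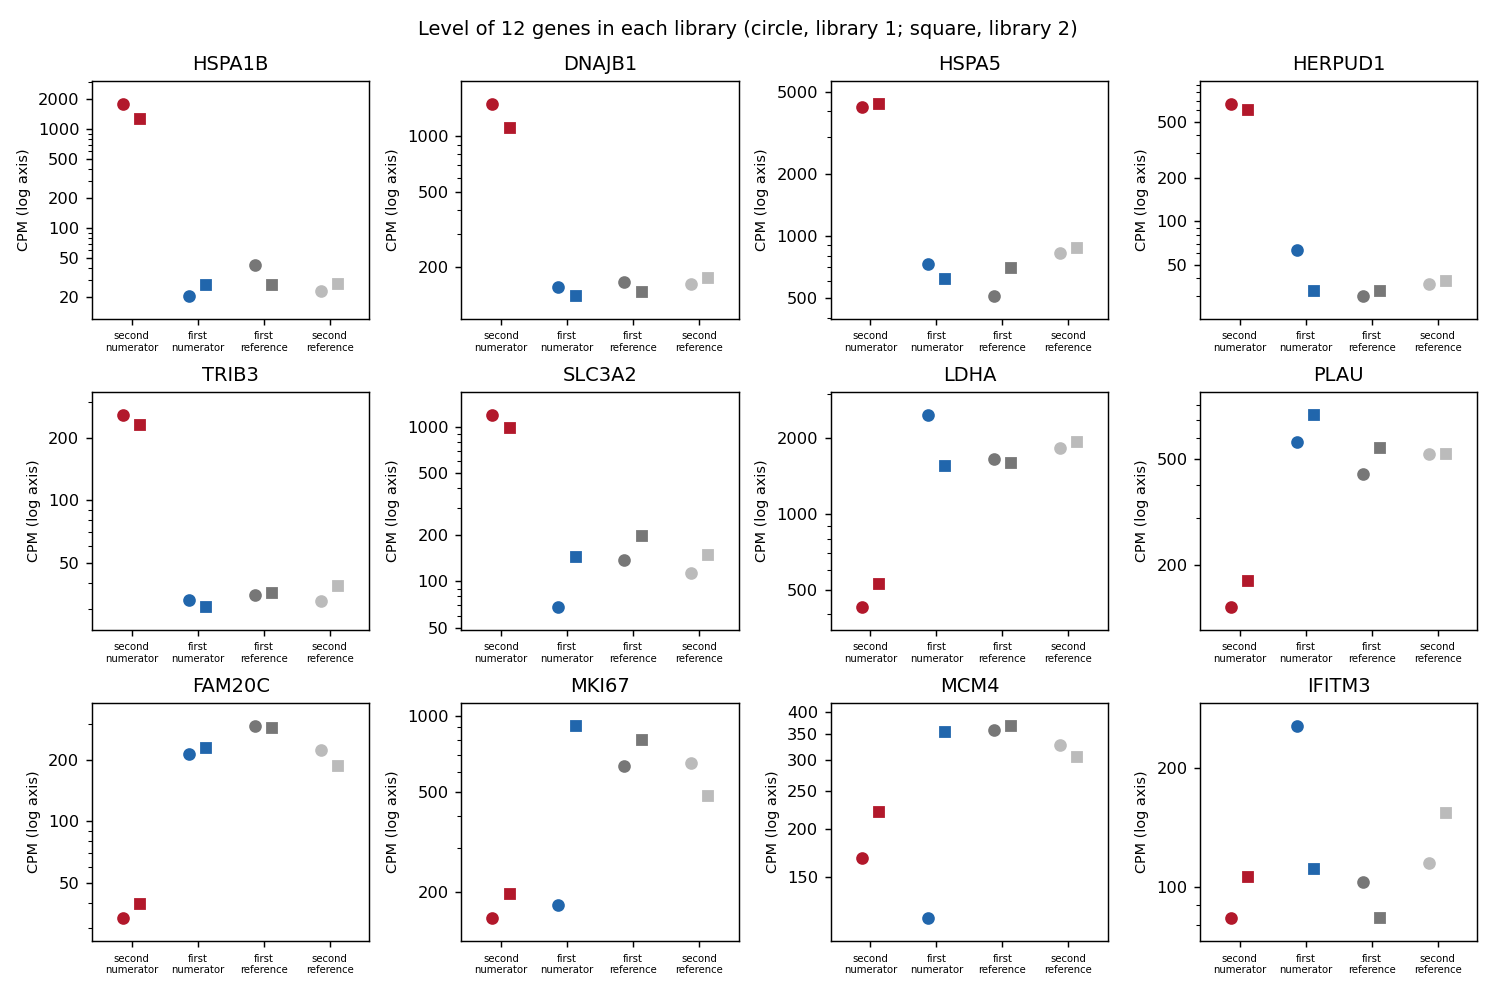
Level of 12 genes in each library (CPM, log axis with its own range per panel); red, second numerator set; blue, first numerator set; grey, references; circles and squares are libraries 1 and 2. For HSPA1B, DNAJB1, HSPA5, HERPUD1, TRIB3 and SLC3A2 the second numerator libraries lie above all others, for LDHA, PLAU and FAM20C below all others, and for MKI67, MCM4 and IFITM3 the first numerator libraries lie far apart.

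Other stress and signalling lists also held calls, where 1.26% of all members were called higher and 1.90% lower. Whether a list held more calls than these shares was not tested. NF-kappaB and inflammatory genes had 2 of 9 members higher and 0 lower, with a median of 1.40, and 5 of 9 higher after centring on the median gene. The deposited data held 28 genes of this list, so its median covers only a part of it. CXCL8, the neutrophil chemokine interleukin 8, had 282 and 158 CPM in the second numerator libraries, against 13 and 7.45 CPM in the first, and NFKB2, a precursor of the p52 subunit, had 269 and 226 CPM, against 47.2 and 32.3 CPM. In both genes the second numerator libraries lay above all other libraries. In autophagy, 2 of 25 rose: MAP1LC3B, the membrane mark of autophagosomes, at 417 and 340.0 CPM in the second numerator libraries, against 85.9 and 58.7 CPM in the first, and the cargo receptor SQSTM1 at 2001 and 1901 CPM, against 599.6 and 411 CPM. Of 13 NRF2 targets 1 rose, HMOX1, heme oxygenase, at 257 and 333 CPM in the second numerator libraries, against 32.4 and 26 CPM in the first. FTL and FTH1, the ferritin chains, were not called. Of 20 p53 targets, 2 rose: GADD45A, 4.8-fold, and AEN, 2.87-fold, while MDM2 was not called at a first estimate of 0.50. PMAIP1, a BH3-only killer of the BCL2 family, was 3.21-fold higher, and 10 of 11 family members were not called.

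Other members with large rises were MAFF, a small MAF factor, at 146 and 127 CPM in the second numerator libraries, against 9.62 and 13.5 CPM in the first, and IL7R, the interleukin 7 receptor, at 164 and 119 CPM, against 16 and 14.8 CPM. HDAC9, a class IIa histone deacetylase, had 171 and 95.2 CPM in the second numerator libraries, against 8.6 and 17 CPM in the first. Of 26 genes of the extracellular matrix 1 rose and 1 fell. LAMB3, a laminin chain of basement membranes, rose, at 2586 and 2265 CPM in the second numerator libraries, against 636 and 641 CPM in the first. THBS1, the matrix protein thrombospondin 1, fell, at 582 and 555 CPM in the second numerator libraries, against 1391 and 1941 CPM in the first (difference -1.69 ± 0.36, adjusted p 0.00936). For THBS1 the references had 2034 to 4289 CPM, so the first numerator set was also low against them.

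The lists held 41 of the members called higher and 17 of those called lower. FAM20C, the kinase of secreted proteins, had 33.7 and 39.5 CPM in the second numerator libraries, against 212 and 227 CPM in the first, a difference of -2.71 ± 0.34 (adjusted p 6.88e-10). PLAU, the urokinase plasminogen activator, had 139 and 174 CPM in the second numerator libraries, against 581 and 732 CPM in the first. SERPINB2, an inhibitor of PLAU and the other call among 9 genes of plasminogen activation and clotting, rose: it had 118 and 60.4 CPM in the second numerator libraries, against 16.3 and 6.24 CPM in the first (adjusted p 0.0069). The references lay between, at 34.6 to 54.5 CPM, so the first numerator set was also low against them. UACA had 71.6 and 68.2 CPM in the second numerator libraries, against 330.0 and 317 CPM in the first. Its references had 148 to 199 CPM, between the numerator sets, so the first numerator set was also high against them. In FAM20C, PLAU and UACA the first numerator libraries lay close together. In others the first numerator libraries differed: NEFL, the light neurofilament chain, had 57.6 and 59.9 CPM in the second numerator libraries, against 617 and 166 CPM in the first, and TUBA1A, an alpha tubulin, had 34.2 and 41.5 CPM, against 309 and 109 CPM. For AGFG2 (7.65 and 8.76 CPM, against 62.5 and 14.4 CPM in the first numerator libraries) the call was lost in the limma fit (adjusted p 0.0546). In limma without second numerator library 1, 20 of the 63 named genes that were called lost their call, NEFL and TUBA1A among them.

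In glycolysis and glucose uptake, 1 of 24 members fell and 1 rose. Both second numerator libraries lay below both first ones in 15 of 24 and above in 4, against 32.2% and 29.4% of members. In limma 10 were lower and 2 higher, against 11.8% and 7.99% of members. LDHA, lactate dehydrogenase A, had 429 and 529.9 CPM in the second numerator libraries, against 2474 and 1557 CPM in the first, a difference of -2.18 ± 0.35 (adjusted p 2.99e-06). SLC2A3, the glucose transporter GLUT3, had 123 and 110.2 CPM, against 48.7 and 25.6 CPM in the first numerator libraries. GAPDH and PKM were not called, with first estimates of -0.91 and -0.99. NDUFB10, a complex I subunit, was the single call among 31 genes of respiratory complex I and was lost after centring, and the 29 genes of complexes II to V had 0 calls. Of 16 growth factor receptors and ligands 3 fell, TGFA, TGFB1 and ERBB2, by 4.13-fold, 2.75-fold and 2.74-fold; TGFB1 was lost after centring. Of 11 feedback genes of ERK signalling 9 were not called, while the phosphatase DUSP4 was 4.28-fold lower and its relative DUSP5 2.87-fold higher.

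The lists of cell division depended on the first numerator library. Summed over the listed genes, mitosis had 1546 and 1837 CPM in the second numerator libraries, against 1858 and 6856 CPM in first numerator libraries 1 and 2, and 4161 to 6274 CPM in the references. By the mean of the second numerator libraries, all 32 members were below first numerator library 2, and 20 of 32 below library 1. The median difference was -1.96 from library 2 and -0.10 from library 1. MKI67, the proliferation antigen, had 158 and 197 CPM in the second numerator libraries, against 178 and 908 CPM in the first, and was not called. The 4 calls, all lower, were KIF20A, CENPF, NUF2 and ECT2, of which KIF20A and NUF2 were lost in limma (adjusted p 0.062 and 0.122) and KIF20A, NUF2 and ECT2 after centring.

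DNA replication changed its direction between the first numerator libraries. By the same mean, all 34 members were lower in the second numerator set than in first numerator library 2 (median -0.81), and 31 of 34 were higher than in library 1 (median 0.68). None of the 34 was called in the difference test or in limma with all libraries. Without first numerator library 1 limma called 29 of 34 lower and 0 higher, and without library 2 it called 17 higher and 0 lower, against 24.5% of members lower in the fit without library 1 (19.7% of all genes in it) and 16.9% higher and 19.9% lower without library 2. MCM4, a subunit of the replicative helicase, had 168 and 221 CPM in the second numerator libraries, against 118 and 354 CPM in the first. Homologous recombination and Fanconi repair stood at -0.69 from first numerator library 2 and 0.77 from library 1.

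Interferon-stimulated genes ran the other way. Their summed level was 1008 and 1009 CPM in the second numerator libraries, against 1877 and 598 CPM in first numerator libraries 1 and 2, with a median difference of -1.08 from library 1 and 0.49 from library 2. IFITM3, a membrane protein that restricts virus entry, had 83.5 and 106 CPM in the second numerator libraries, against 256 and 111 CPM in the first, and was not called. IRF1 was the single call of 15, higher at 68.8 and 55.5 CPM, against 19.3 and 15.2 CPM in the first numerator libraries. The list held 33 genes, and those under the floor went different ways, as 2 picked with values known show. IFIT2 had 71.8 and 40.8 CPM in the second numerator libraries, against 26.8 and 2.48 CPM in the first. IFIT1 had 14.6 and 12.4 CPM in the second numerator libraries, against 112 and 5.15 CPM in the first. Genes of mitochondrial DNA stood at -0.01 from library 1 and 0.75 from library 2, and ribosome biogenesis at 0.67 and -0.09, both with 0 calls in the difference test.

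**Figure D4:**
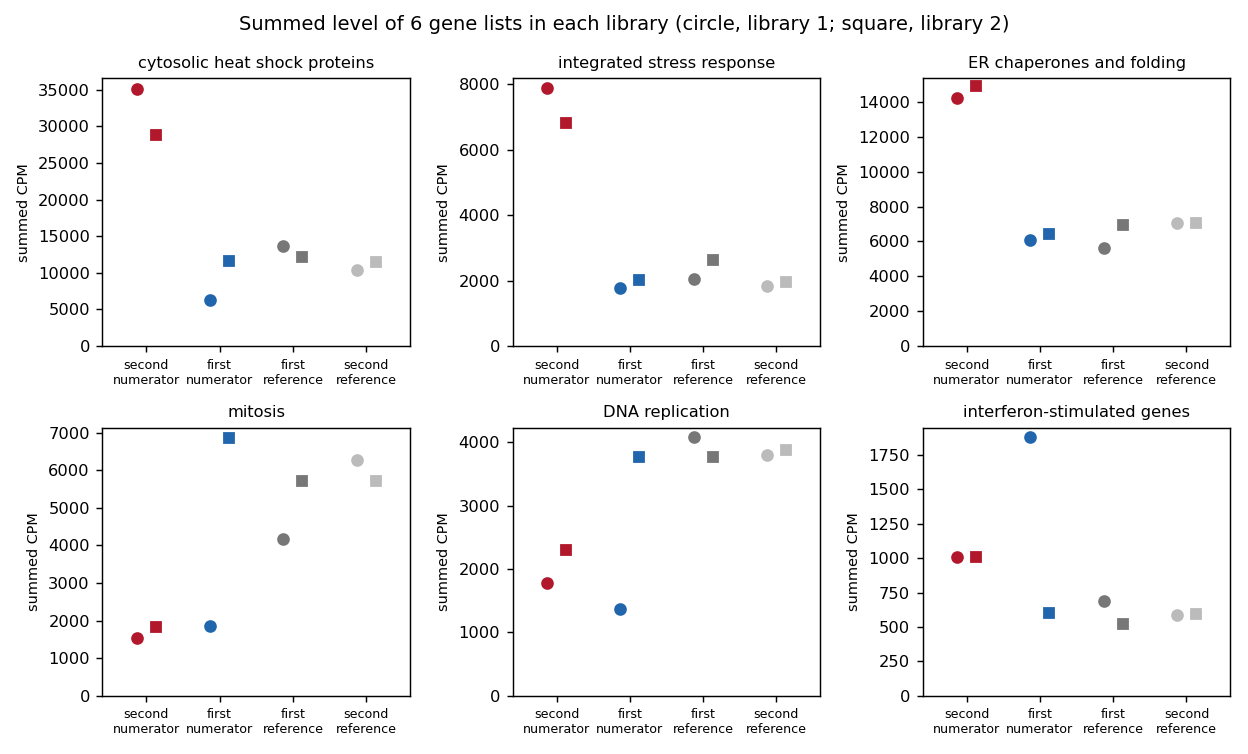
Summed CPM of 6 gene lists in each library (vertical axes from 0, own range per panel); circles and squares are libraries 1 and 2. Heat shock, integrated stress response and ER chaperone sums are highest in both second numerator libraries, while first numerator library 1 lies with them for mitosis (1858 CPM) and stands highest for interferon-stimulated genes (1877 CPM).

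Medians of 5 stress and inflammation lists were above 0 against either first numerator library, which was not particular to them. How lists differ in this was not tested. Against first numerator library 1 and library 2 the medians were 1.89 and 1.49 for cytosolic heat shock proteins, 2.12 and 1.44 for the integrated stress response, 1.30 and 1.04 for ER chaperones, 0.68 and 1.00 for ER sensors and degradation, and 1.24 and 1.21 for the 9 members among 28 NF-kappaB genes. The medians of p53 targets, 0.33 and 1.03, and of autophagy genes, 0.18 and 0.63, were also above 0 but differed more between the libraries in proportion. Further lists above 0 against both were aminoacyl-tRNA synthetases (0.62 and 0.34), NRF2 targets (0.26 and 0.43) and the BCL2 family (0.16 and 0.29). So were cytosolic ribosomal proteins (0.24 and 0.10), metallothioneins (0.74 and 0.13), immediate early factors (0.59 and 0.06) and the TRiC/CCT chaperonin (0.60 and 0.01). The part of first numerator library 1 in the other lists was not tested beyond leaving it out.

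**Figure D5:**
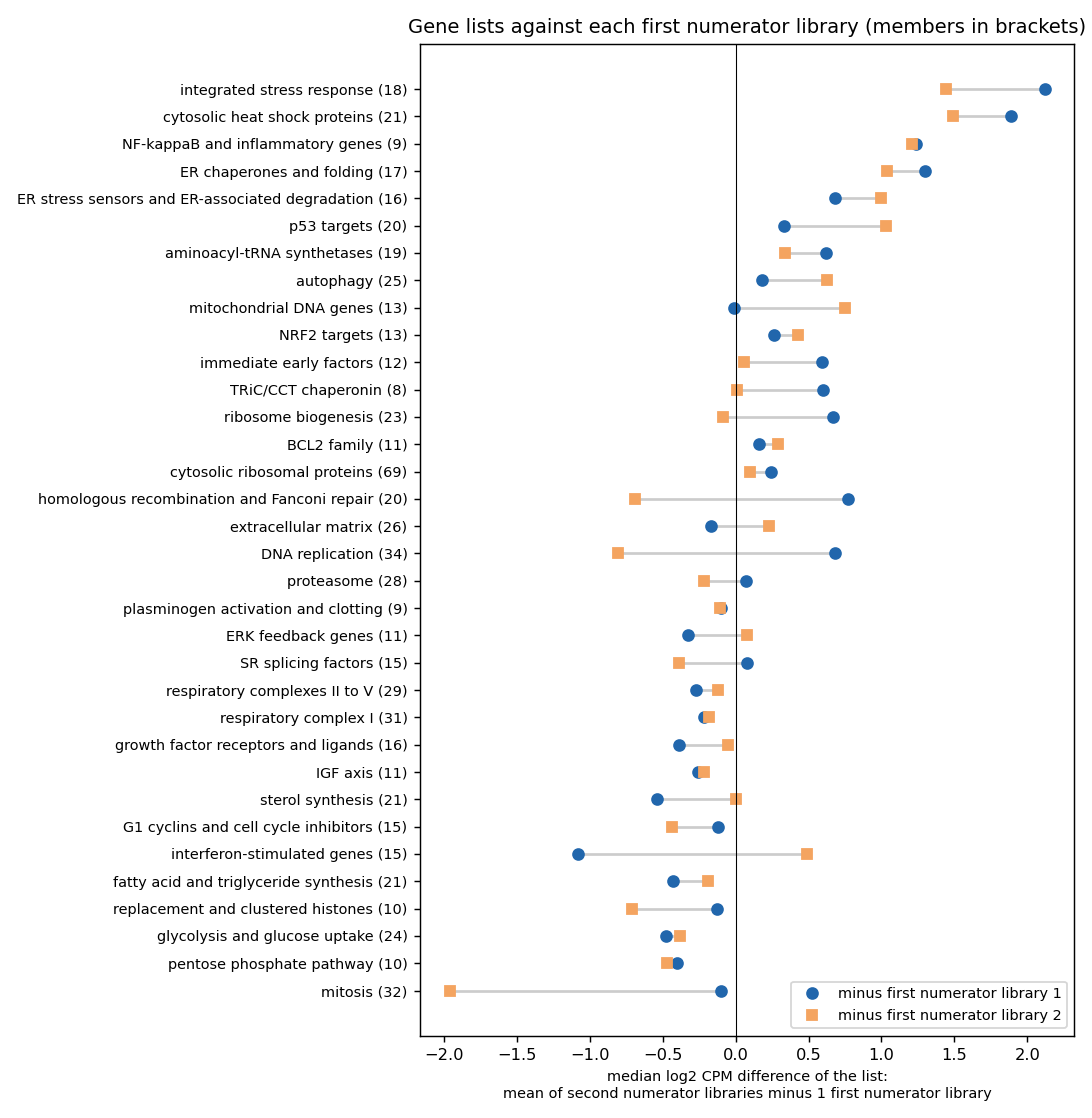
Median log2 CPM difference of each list with at least 8 members (number in brackets), mean of the second numerator libraries minus first numerator library 1 (circle) or library 2 (square); the line joins the 2 values. The integrated stress response and heat shock lists lie right of 0 for both, and DNA replication, recombination and interferon lists lie on opposite sides.

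The rule's floor sets where the description ends. SNAI1, CEP128 and LENG1 lay just inside it, at base means of 10, 10.01 and 10.01 CPM and first estimates of 0.11, -1.01 and 0.41. SCG2, DNAH14 and FARS2 lay just outside, at 9.987, 9.987 and 9.984 CPM and first estimates of -1.78, 0.29 and 0.14. Below the floor, 101 of 17203 genes were called higher and 24 lower.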

How the data were processed

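Per the labels, RNA of mouse fat was sequenced by a commercial service. Aligner, counter and build: not given in the sources used here. Per the file headers, the authors deposited 4 unnamed comparisons, each with a base mean (a normalised signal), a log2 fold change with its standard error, a test score, and p-values before and after adjustment. 0 value columns could be tied to a sample.

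Differences of log2 fold changes (the third minus the first comparison, and the fourth minus the second) were divided by the root of the summed squares of the deposited standard errors. The larger of the 2 normal p-values was adjusted by Benjamini-Hochberg over 26755 genes. The shared references are counted in both errors, which overstates the error of a difference. The test was run on simulated data with known large differences.

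Reads of the 8 libraries were rebuilt from the base means as whole multiples of 4 steps per comparison. With the steps of a pair exchanged, few of 300 genes could be met. CPM carry a pseudocount of 0.5 on the log2 scale. A fit of these reads (limma 3.58.1 with voom, R 4.3.3, median-ratio scaling, mean of at least 2 CPM, 4 sets of 2 libraries) was added after the data had been seen. It called about 6 times as many members as the difference test, which was fixed as the main test and stays so. It takes the sides of the table as sets, although the libraries are tied to no sample, and nothing says that libraries of a set came from separate cultures or animals. Its p-values and those of the difference test therefore measure only the spread between these libraries, which may be technical.

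Members, the 41 lists and the tests were chosen with earlier results of these data known. Named genes were the 12 largest rises and falls, and in each list up to 4 called members and the 2 uncalled members of highest base mean; a pseudogene was left out where the table lists its parent. This exclusion had first also dropped genes such as DUSP4 and PMAIP1, and lists without calls had named extra genes. Both errors were put right after values had been seen. Genes used to tell sex were left out, and an item among the named genes is not reported here. Tools were Python 3.11.15, numpy 2.4.6, scipy 1.17.1 and pandas 2.3.3.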

Additional observations from a re-analysis of the deposited data

How the results depend on the processing

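Counts of members called in the difference test were 117 higher and 177 lower. Centred on the median gene they were 198 and 90, with a plain sum of standard errors, the largest the error can be, 29 and 17, and over genes of at least 2 CPM 239 and 318. Adjusted over genes of at least 10 CPM alone, 279 were lower. In limma, added after the data had been seen, 744 members were higher and 1100 lower. Leaving out 1 library at a time moved these to between 100 and 1577 higher and between 44 and 2283 lower: without second numerator library 1 they were 100 and 44, without second numerator library 2 they were 279 and 301, without first numerator library 1 they were 1018 and 2283, without first numerator library 2 they were 1577 and 1858, and without first reference library 1 or 2, 715 or 722 were lower. A set left with 1 library was assumed to vary like the others, and why the counts moved was not tested. Members numbered 4086 at a floor of 50 CPM. Genes over 1 in size, 346 higher and 762 lower, became 561 and 468 after centring, and 701 higher at a floor of 2 CPM. Listed genes called, 41 higher and 17 lower, became 20 and 3 with the plain sum, and 10 lower after centring. Of the 63 named genes called, 0 changed direction in any alternative. The genes were chosen for their differences and every alternative used the same libraries, so a constant direction was likely beforehand. 30 lost their call with the plain sum, 7 after centring, 3 in limma and 20 without second numerator library 1. No paired analysis was possible because the libraries of the table carry no replicate numbers. Depth limits genes near the floor, where the median error was 0.47 at 10 to 20 CPM, against 0.35 over 300 CPM.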

Other observations

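The floor leaves out genes of low base mean in any comparison, and of 17203 such genes 101 were called higher and 24 lower. The next 5, from the lists, were chosen after their values had been seen, and all are higher in the second numerator set. HSPA6, an HSP70 gene that is silent in most unstressed cells, had 31596 and 18834 reads in the second numerator libraries, against 19 and 13 reads in the first and 11 to 50 reads in the references. ATF3, a stress-induced transcription factor, had 162 and 110.4 CPM in the second numerator libraries, against 8.43 and 3.45 CPM in the first and 4.08 to 13.9 CPM in the references. CHAC1, which degrades glutathione, had 103 and 76.6 CPM in the second numerator libraries, against 4.16 and 3.81 CPM in the first and 2.09 to 4.63 CPM in the references. DDIT3, which encodes CHOP, had 99.4 and 95.1 CPM in the second numerator libraries, against 8.29 and 4.72 CPM in the first and 5.68 to 9.22 CPM in the references. ICAM1, an adhesion molecule, had 13 and 9.99 CPM in the second numerator libraries, against 0.525 and 0.363 CPM in the first and 0.248 to 0.614 CPM in the references. TFEB, also under the floor and chosen with its values known, went the other way. It had 4.67 and 4.75 CPM in the second numerator libraries, against 21.1 and 8.17 CPM in the first and 6.86 to 10.4 CPM in the references.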
